A study of Mus musculus with 45 samples.

Results

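The comparison described here was that of Bat3 knockout (KO) with wild type (WT) dendritic cells after lipopolysaccharide (LPS), and its members were the 5 libraries labelled LPS and KO and the 5 labelled LPS and WT, 10 of 45 in all. RNA had been sequenced from mouse bone marrow-derived dendritic cells, cells that differentiate from marrow precursors in the growth factor GM-CSF. Both groups were of strain C57BL/6. The KO cells carried floxed Bat3 alleles and a Cre recombinase driven by CD11c, and no Cre or floxed allele is named for the WT cells. Both were cultured with 20 ng/ml GM-CSF, re-plated at day 9 and treated for 8 h. Live CD11c-high cells were sorted, and TruSeq libraries were prepared, each from 1 µg total RNA. CD11c-driven deletion occurs only as cells come to express CD11c, the floxed exons are not named, and the animals' age and whether animals were pooled are not given. Of the other groups, KO and WT cells in medium and with 4PBA (4-phenylbutyrate, a chemical chaperone) served for comparison, and 4µ8C and rapamycin groups served only to measure an effect of library position.

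Bat3, now named Bag6, encodes a chaperone that holds exposed hydrophobic segments of proteins in the cytosol. It passes tail-anchored membrane proteins to their insertion route and misfolded ones to the proteasome. LPS is sensed by Toll-like receptor 4, which through NF-kB and interferon factors induces cytokines, chemokines and costimulatory molecules in dendritic cells.

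Total expected counts per LPS library ran from 1956436 to 4737736, and 10287 of 23420 genes had enough counts to be tested. Levels are given as CPM, counts scaled to library size and TMM factor, and genes with an edgeR quasi-likelihood adjusted p under 0.05 were called. Errors are SE for log2 fold changes and SD over 5 libraries for CPM. The p-values measure the spread between samples labelled biological replicates. The code of each library, a letter with a number, was taken as its place on a plate, although the labels do not say this. All 5 WT LPS libraries had codes in row A, an outer row, and KO replicates 1 to 4 had inner codes. KO replicate 5 had an outer code, in column 12, so genotype and position are nearly confounded. On the first principal component of the 1000 most variable genes (30.8% of variance), WT libraries lay between -18.61 and -12.59 and KO replicates 1 to 4 between 18.08 and 23.8. KO replicate 5 lay between them at -3.64. Results are therefore given with that library named, with position as a term in the fit, and beside the 4PBA comparison, in which all 10 libraries had inner codes.

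The sorted cells expressed dendritic cell markers, whose summed level was 3168 to 5463 CPM in WT and 2235 to 6260 CPM in KO libraries, with 0 of 7 tested markers called. Itgax, which encodes CD11c, was at 50.8 to 154.4 CPM in WT and 46.5 to 139.7 CPM in KO libraries, and Flt3, a receptor of dendritic cell precursors, was at most 1.82 CPM. Macrophage markers summed to 2841 to 3426 CPM in WT and 2520 to 3309 CPM in KO libraries, with 0 of 11 called and Cd163 at 0. The monocyte list had 3 of 7 members called, where 4.31% of all genes tested were called higher and 1.75% lower. Of these, the chemokine receptor Cx3cr1 was higher and Ccr2 and the proteoglycan Vcan were lower. With the position term 2 members were called higher and 1 lower, and Ccr2 was not called (edgeR adjusted p = 0.19). The list summed to 2139 to 2803 CPM in WT and 2088 to 3647 CPM in KO. B cell and NK cell markers summed to at most 1.84 CPM, and Cd79a, Nkg7 and Eomes were at 0. Neutrophil markers summed to 136.8 to 194.3 CPM in WT and 115.8 to 176.4 CPM in KO libraries. In bulk samples fewer cells of a type and less RNA per cell cannot be told apart.

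Bag6, the targeted gene, was low in all libraries, with 8 to 43 counts each. It stood at 16.8, 13.3, 12.5, 15 and 12.1 CPM in WT replicates 1 to 5 and at 11.4, 3.30, 6.96, 14.9 and 9.86 CPM in KO replicates 1 to 5. KO replicate 4 lay within the WT range and the other KO libraries below it. The log2 fold change was -0.59 ± 0.25 (SE, n = 5 per group) and did not pass (edgeR adjusted p = 0.18). An exact two-sided permutation test of log2(CPM + 0.5) gave a difference of -0.70 with p = 0.0556, where the smallest p the design allows is 0.0079. Counts can include reads from exons that were not floxed.

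Of 10287 genes, 623 were called between KO and WT cells after LPS (6.06%), 443 higher in KO (4.31%) and 180 lower (1.75%). Pim1, a survival kinase downstream of cytokine receptors, had the smallest p. It was at 19.4, 22.1, 18.2, 14.3 and 18.5 CPM in WT replicates 1 to 5 and at 418, 584, 520, 463 and 446 CPM in KO replicates 1 to 5. Every KO library, the outer one included, was far above every WT library. The log2 fold change was 4.71 ± 0.14 (SE; edgeR adjusted p = 6.6e-32) and 4.64 with the position term. WT cells held 16.97 ± 1.80 CPM in medium and 18.5 ± 2.81 after LPS, and KO cells 245.8 ± 24.7 and 486 ± 66.2 CPM (SD, n = 5), so the log2 genotype difference was 3.86 in medium and its change with LPS, 0.86, was not called (edgeR adjusted p = 0.14), but was called with a replicate block within genotype (0.84, edgeR adjusted p = 0.024). With 4PBA the difference was 3.75. Its relatives also rose after LPS. Pim2 had a log2 fold change of 1.17 ± 0.25 and Pim3 one of 0.87 ± 0.18, and both were called with the position term too. With 4PBA the differences of Pim2 and Pim3 were 0.31 and 0.28, and neither was called. Of 19 tested genes on the list of Pim kinases and STAT5-linked genes, 5 were higher and 0 lower, the other members being the cytokine signalling inhibitor Socs1 (1.25 ± 0.25) and the transcription factor Stat5b (0.60 ± 0.15). The list's median log2 fold change was 0.13 against -0.02 over all genes tested. With the position term Pim1, Pim2 and Pim3 were the members called.

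The sequences upstream of the start of Pim1 and of H2-T23 are shown because these genes were the most significant higher and lower ones. They are 250 bases before a RefSeq gene start in GRCm38.p6, Pim1 at chr17:29490535-29490784 on the plus strand and H2-T23 at chr17:36032702-36032951 on the minus strand. Capitals would mark the STAT motif TTCNNNGAA or the NF-kB consensus, searched on both strands, and neither window held either.
Pim1: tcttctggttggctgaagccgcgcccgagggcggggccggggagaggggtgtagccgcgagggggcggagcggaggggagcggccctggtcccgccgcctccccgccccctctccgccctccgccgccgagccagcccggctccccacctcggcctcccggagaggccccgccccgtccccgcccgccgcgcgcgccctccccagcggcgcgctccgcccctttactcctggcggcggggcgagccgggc
H2-T23: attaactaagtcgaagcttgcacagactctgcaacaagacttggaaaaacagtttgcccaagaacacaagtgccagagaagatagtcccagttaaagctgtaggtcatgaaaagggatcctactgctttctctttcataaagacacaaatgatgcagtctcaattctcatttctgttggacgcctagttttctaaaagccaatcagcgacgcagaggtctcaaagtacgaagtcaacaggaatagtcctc
Over all 32851 promoters of that table the STAT motif was present in 7.02% and the NF-kB consensus in 7.25%. Of the named higher genes, 11 of 18 were in the table and the STAT motif lay before Csn2 and Kctd13. Of the named lower genes, 14 of 15 were in the table, with the STAT motif before Fgl2 and Mbnl1 and the NF-kB consensus before H2-M2. A match describes letters and was not tested as a binding site.

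H2-T23 encodes Qa-1, a non-classical MHC class I molecule recognised by inhibitory receptors of NK cells. It was at 656.5, 616.6, 768, 729 and 589.6 CPM in WT replicates 1 to 5 and at 212.8, 253.4, 247.9, 249.9 and 290.4 CPM in KO replicates 1 to 5. The groups did not overlap, and the outer KO library was the highest KO value. The log2 fold change was -1.42 ± 0.13 (edgeR adjusted p = 7.4e-11), -1.30 with the position term and -1.15 with 4PBA. H2-T23 rose with LPS in both genotypes, from 508 ± 116 to 672 ± 75.1 CPM in WT and from 153 ± 20.0 to 251 ± 27.5 CPM in KO (LPS against medium, edgeR adjusted p = 0.011 and 2.4e-05). H2-T10, another non-classical molecule, also rose with LPS in both genotypes (edgeR adjusted p = 3.5e-06 in WT and 0.0019 in KO). Its genotype difference was opposite to that of H2-T23. H2-T10 was higher in KO cells. It stood at 125.4, 82.6, 103.1, 115.1 and 144.1 CPM in WT and at 281.4, 285.1, 283.9, 369.1 and 404.6 CPM in KO. The outer KO library held the highest value, and the log2 fold change was 1.51 ± 0.20 (edgeR adjusted p = 1.7e-06), 1.58 with the position term and 1.88 with 4PBA. Of 15 class I heavy chain genes tested, H2-T10 and H2-Bl rose and H2-T23, H2-T9 and H2-M2 fell, against a median log2 fold change of 0.12. None of 12 MHC class II and none of 14 peptide-loading genes were called. Beside these lists, 4.31% of all genes tested were called higher and 1.75% lower. Class I relatives share sequence, so reads can be split between copies and their single values are uncertain.

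**Figure D1:**
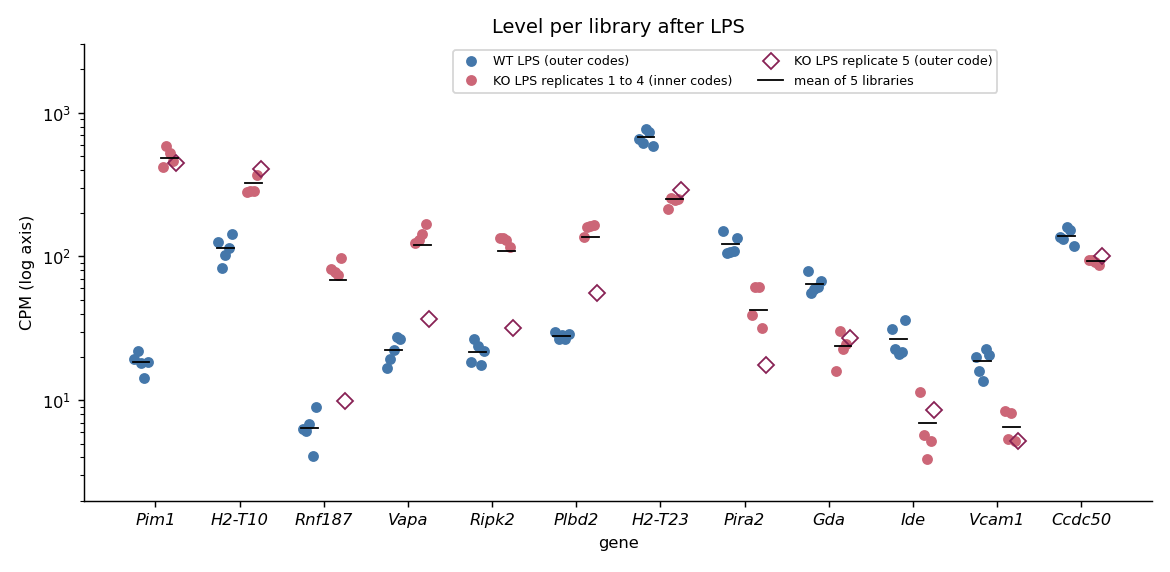
Level of 12 genes in the 10 LPS libraries, as CPM on a log axis; circles are libraries, diamonds KO replicate 5 with an outer code, and bars means of 5. KO replicate 5 lies with the other KO libraries for Pim1, H2-T10, H2-T23, Pira2, Gda, Ide, Vcam1 and Ccdc50, and near the WT libraries for Rnf187, Vapa and Ripk2.

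Several named genes were lower in all 5 KO libraries, which the naming rule required. Ide, the insulin-degrading enzyme, was at 31.5, 22.8, 21.1, 21.8 and 36.2 CPM in WT replicates 1 to 5 and at 11.4, 5.77, 3.93, 5.24 and 8.57 CPM in KO replicates 1 to 5. No KO library reached the lowest WT value. The log2 fold change was -1.93 ± 0.26 (edgeR adjusted p = 1.5e-06), -1.99 with the position term and -1.17 with 4PBA. Pira2, an activating paired immunoglobulin-like receptor, was at 150.6, 105.4, 107.1, 109.1 and 134.9 CPM in WT and at 39.1, 61.0, 60.8, 31.9 and 17.7 CPM in KO. The outer KO library was the lowest, and the log2 fold change was -1.53 ± 0.32 (-1.45 with 4PBA). Gda, guanine deaminase, was at 79.8, 55.5, 59.3, 61.1 and 67.0 CPM in WT and at 15.9, 30.1, 22.7, 24.5 and 26.99 CPM in KO. Those groups were also apart (-1.42 ± 0.20, with 4PBA -0.89). Grn, which encodes the lysosomal and secreted protein progranulin, fell from 1497 ± 178 to 750 ± 131 CPM (SD, n = 5; -0.996 ± 0.15, with 4PBA -1.12). Tgfbi, a secreted matrix protein named after its values were seen, fell from 995 ± 89.1 to 543 ± 69.5 CPM (-0.87 ± 0.15, with 4PBA -0.82).

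Other lower genes differed after LPS without a call in 4PBA. Vcam1, an adhesion molecule for leukocyte integrins, was at 19.9, 16.0, 13.7, 22.9 and 20.8 CPM in WT and at 8.48, 5.36, 8.17, 5.24 and 5.19 CPM in KO. The groups did not overlap (-1.52 ± 0.45, edgeR adjusted p = 0.034), though the call was lost without any 1 of 6 libraries (WT replicates 1, 4 and 5 and KO replicates 2, 4 and 5; edgeR adjusted p = 0.062 to 0.078). In medium Vcam1 was at most 1.44 CPM in either genotype, and the change of the genotype difference with LPS, -2.92, was not called (edgeR adjusted p = 0.60). Fgl2, a fibrinogen-like protein with coagulant and immunoregulatory forms, was at 464.9, 409.3, 468.3, 280.5 and 219.8 CPM in WT and at 139.8, 244.7, 184.3, 181.3 and 147.4 CPM in KO. The groups overlapped in 1 KO library, and the log2 fold change was -1.04 ± 0.21 (-1.31 with the position term). Cav2, a caveolin, fell by 1.07 on the log2 scale (SE 0.25) and Mbnl1, a splicing regulator, by 1.39 (SE 0.30). Ptger4, a prostaglandin E2 receptor, fell by 1.35, Dolpp1, which recycles dolichol for glycosylation, by 1.21, and the DNA crosslink repair nucleases Dclre1b and Dclre1a by 1.20 and 1.02. H2-M2, a non-classical class I gene, fell by 1.72, and Dynlt1c, a dynein light chain, by 1.15. Ptger4 and H2-M2 were not called with the position term (edgeR adjusted p = 0.063 and 0.086), nor was Ptger4 without KO replicate 3.

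Many of the largest increases were small or near absent in the outer KO library. Ripk2, the kinase of NOD receptor signalling, was at 18.4, 26.6, 23.9, 17.6 and 22.2 CPM in WT replicates 1 to 5 and at 134.3, 133.5, 130.7, 116.6 and 31.7 CPM in KO replicates 1 to 5. KO replicate 5 lay just above the WT libraries and far below the other KO libraries. The log2 fold change was 2.32 ± 0.35, 1.22 with the position term and -0.19 with 4PBA. Rnf187, a RING-type ubiquitin ligase, was at 6.30, 6.09, 6.84, 4.13 and 8.97 CPM in WT and at 81.9, 77.5, 74.8, 97.8 and 9.86 CPM in KO. Here too the outer KO library stood beside WT (3.36 ± 0.65, with the position term 1.07 and not called). Plbd2, a lysosomal phospholipase B-like protein, was at 29.9, 26.6, 28.5, 26.6 and 28.9 CPM in WT and at 137.2, 159.4, 163.7, 166.4 and 55.5 CPM in KO. It remained called with the position term (2.27 ± 0.34 against 1.06). Vapa, a protein of membrane contact sites, had the same pattern (2.39 ± 0.42), with KO replicate 5 at 36.6 CPM and the other KO libraries at 124.7 to 166.9 CPM. Tpst1, Hgsnat, Adssl1, Bloc1s4, Kctd13 and Csn2 complete the named increases, with log2 fold changes of 2.19 to 2.53, of which the call of Csn2, the milk protein beta-casein, was lost without any 1 of 9 libraries. With the position term Hgsnat (1.14) and Adssl1 (0.69) were called, and Tpst1 (0.89), Bloc1s4 (0.65), Kctd13 (0.86) and Csn2 (1.20) were not. Rps27, a ribosomal protein gene with near-identical copies, rose most (5.04 ± 1.04), from 3.42 to 6.09 CPM in WT to 55.3 to 187.4 CPM in KO, but it also ran from 81.2 to 183.4 CPM in WT cells in medium and its value is uncertain.

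Position was measured within groups in 15 libraries not labelled LPS. They were those of WT 4µ8C, KO 4µ8C and WT rapamycin, 6 with outer and 9 with inner codes. Those outer codes lay in columns 1 and 12 and none in row A, where all WT LPS libraries lay. An effect of row A itself was therefore not measured. Of 9455 genes tested there, 251 differed by position (2.65%), 247 lower in outer libraries (2.61%) and 4 higher (0.0423%). Of the 429 genes called higher after LPS that had a value there, 186 (43.4%) were among these, and of 173 called lower, 0 were. To keep KO replicate 5 out of the choice of genes, calls were also made without it, 723 of 10395 genes (6.96%), 507 higher (4.88%) and 216 lower (2.08%), of which 506 and 215 were also tested with it. Over the 506 higher genes the median log2 ratio to the WT mean was 1.24 in KO replicates 1 to 4 and 0.36 in KO replicate 5, and over the 215 lower genes it was -0.81 and -0.38. KO replicate 5 lay above every WT library for 266 of the higher genes (52.6%), where it did so for 19.9% of all 10287 genes. It lay below every WT library for 112 of the lower genes (52.1%), where it did so for 16.2% of all genes. For the 209 higher genes that differed by position the medians were 1.56 and 0.36, and for the other 297 higher genes 0.99 and 0.36. The WT libraries and KO replicates 1 to 4 took part in the choice of these genes, so their own ratios are descriptions. KO replicate 5 was set against the mean and range of the same WT libraries. Its ratios and shares are therefore not free of that choice, which the shares over all genes did not involve. Of the 443 genes called higher with all 10 libraries, groups of 5 did not overlap for 242, where 3.23% of all genes lay apart that way. Of the 180 called lower, they did not overlap for 97, where 2.13% did. All 10 libraries took part in the choice of those genes, so these counts are descriptions too. The part that position has in these differences cannot be told apart from genotype in these 10 libraries.

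**Figure D2:**
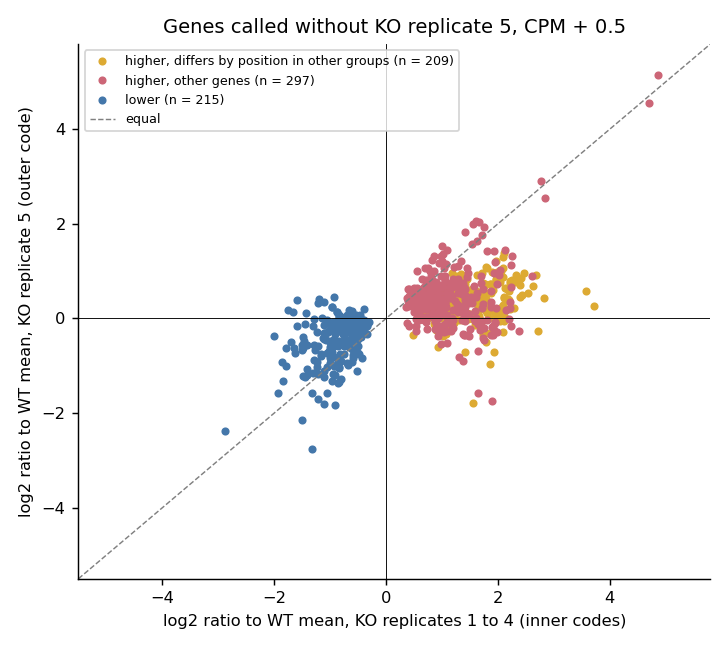
Log2 ratio to the WT mean (CPM + 0.5) in KO replicate 5, outer code, against the mean of KO replicates 1 to 4, inner codes, for the 506 higher and 215 lower genes called without KO replicate 5. Most points lie nearer 0 on the vertical than on the horizontal axis, with medians of 0.36 against 1.24 for higher and -0.38 against -0.81 for lower genes.

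With outer or inner code as a term, 161 genes were called (1.57%), 104 higher (1.01%) and 57 lower (0.554%), and 137 of them were called the same way without the term. No group with both positions had a code in row A. The term was therefore estimated from columns 1 and 12 and carried over to the WT LPS libraries. The count of 161 became 77 without WT LPS replicate 1, 94 without replicate 3, 96 without replicate 4 and 107 without KO LPS replicate 2. Among the 20 medium and LPS libraries alone, KO LPS was the only group with both positions. With the term, a fit of those 20 compared KO replicate 5 alone with WT, so it was not a separate check. By the naming rule the genes called with and without the term added Cx3cr1 (2.02 ± 0.53, with the term 2.48), the ATPase Wrnip1 (2.03), the splicing factor Usp39 (2.14) and the gene model Gm10052. Cx3cr1, the receptor of fractalkine, was at 5.25, 5.71, 5.70, 2.25 and 0.28 CPM in WT and at 5.90, 15.7, 18.8, 16.2 and 16.1 CPM in KO. KO replicate 1 lay just above the highest WT library and the other KO libraries well above it, and without WT replicate 5 the call was lost (1.64, edgeR adjusted p = 0.053). With KO replicate 5 as the only KO library, 8 genes were called (0.0722%), the lone library being assumed to vary like the other groups. Of these, 7 were higher (0.0632%), including Pim1, H2-T10, H2-Q5, Glo1, Gm6034 and C920025E04Rik, and H2-T23 was lower (0.00903%).

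Between KO and WT cells with 4PBA, where all codes were inner and no library is shared with LPS, 51 genes were called (0.496%), 19 higher (0.185%) and 32 lower (0.311%). Of the 623 genes called after LPS, 23 (3.69%) were called the same way there, which is 45.1% of the 4PBA calls, and 2 were called the opposite way. The 9 shared higher genes were Pim1, H2-T10, H2-Bl, Glo1, Gm6034, Gm8909, A930015D03Rik, C920025E04Rik and 1500012F01Rik. Glo1, glyoxalase 1, which detoxifies methylglyoxal, rose from 10.5 ± 2.27 to 20.9 ± 4.13 CPM (log2 fold change 1.00 ± 0.17; 1.03 with 4PBA). Among the 14 shared lower genes were H2-T23, H2-T9, Ide, Pira2, Gda, Grn, Tgfbi, the interferon-induced membrane protein Ifitm1 (-1.36 ± 0.33 after LPS, not called with the position term, edgeR adjusted p = 0.10), the raft protein Flot1, the serine incorporator Serinc3, also named after its values were seen, and Hmgcs1, an enzyme of cholesterol synthesis. The 443 higher genes had a median log2 fold change of -0.21 with 4PBA and the 180 lower genes one of -0.17. In medium, where all WT codes were outer and all KO codes inner, 918 genes were called (8.92%), 680 higher (6.61%) and 238 lower (2.31%), among them 349 of the 443 and 34 of the 180.

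**Figure D3:**
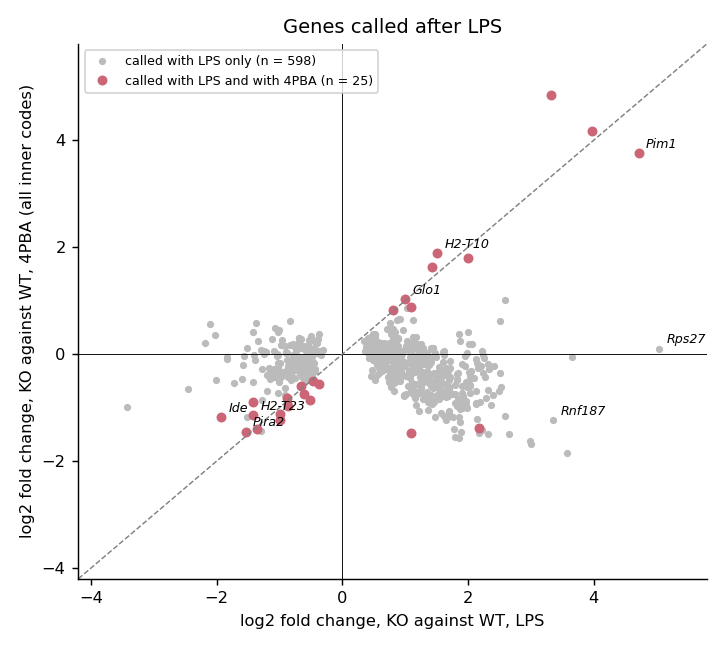
Log2 fold change of KO against WT with 4PBA against that after LPS, for the 623 genes called after LPS; red points were also called with 4PBA, 23 in the same direction and 2 in the opposite one. Pim1 and H2-T10 lie near the dashed line of equality, and on the 4PBA axis Rnf187 lies at -1.24 and Rps27 at 0.10.

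Calls were counted among the neighbours of Bag6 on chromosome 17. Within 100 places of Bag6 in gene order, Bag6 left out, 9 of 106 tested genes were higher and 3 lower (11.3%), beside 5.99% on the rest of chromosome 17 and 6.00% elsewhere. With the position term the shares were 7.55%, 2.22% and 1.47%. With 4PBA 7 of the 106 genes were higher and 2 lower, where 0.496% of all genes tested were called. On the rest of chromosome 17, 2 of 451 tested genes were higher and 1 lower with 4PBA. Elsewhere 10 of 9730 were higher and 29 lower. The called genes were Prrc2a, Ddx39b, H2-Q5, Flot1, 2310061I04Rik, A930015D03Rik, H2-T23, Gm6034, H2-Bl, C920025E04Rik, H2-T10 and Gm8909. H2-T23 lay 50 places and H2-T10 56 places from Bag6. Pim1 was 174 and Glo1 163 places away, on chromosome 17 but outside the window. Of the 23 genes called the same way after LPS and with 4PBA, 10 lay on chromosome 17, Pim1 and Glo1 among them. That chromosome held 557 of the 10287 genes tested, 39 of the 623 calls after LPS and 12 of the 51 calls with 4PBA. The median log2 fold change of the window was -0.006.

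**Figure D4:**
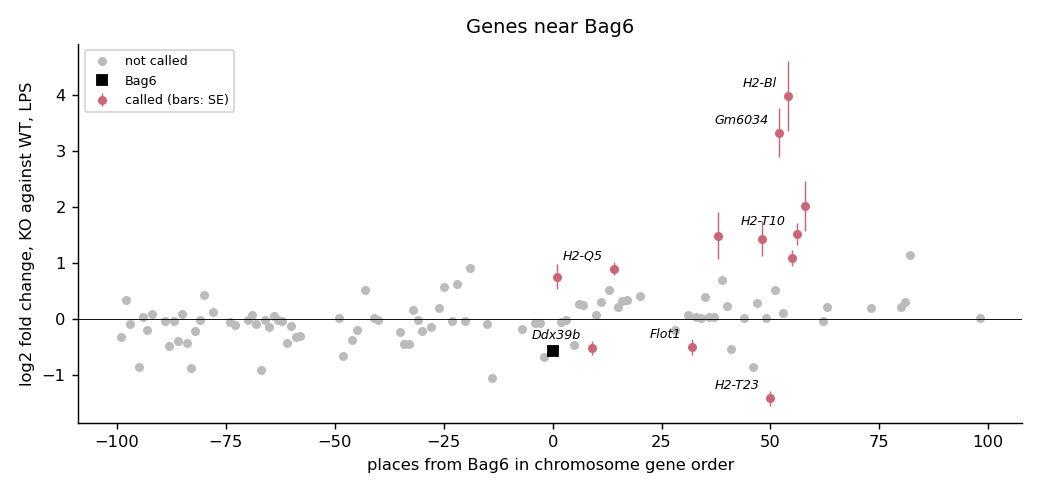
Log2 fold change of KO against WT after LPS for the tested genes within 100 places of Bag6 in chromosome gene order; red points with SE bars were called. Called genes include H2-T23, which was lower, and H2-T10, H2-Bl and Gm6034, which were higher.

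Of the immune output genes, 1 cytokine passed the test, where 4.31% of all genes tested passed as higher and 1.75% as lower. Of 22 tested cytokines 0 were higher and 1 lower, and of 18 chemokines 0 were called, with median log2 fold changes of 0.23 and -0.10 against -0.02 over all genes. The called member was Il10, an anti-inflammatory cytokine. It was at 12.1, 0.38, 2.28, 1.13 and 21.3 CPM in WT and at 0.74, 0.41, 0.30, 0.87 and 1.04 CPM in KO. WT replicates 1 and 5 were high and WT replicate 2 lay within the KO range (-3.42 ± 0.89, edgeR adjusted p = 0.013, with the position term 0.071; without WT replicate 5, -2.39 and 0.14). Il1b had a log2 fold change of 0.53 ± 0.27, Il6 one of 0.20 ± 0.32, Tnf one of -0.47 ± 0.34 and Il12b one of -0.59 ± 0.58, and none passed. Ccl22, a chemokine for CCR4-bearing T cells, was at 1373 to 2156 CPM in WT and 399.2 to 1220 CPM in KO. Those ranges did not overlap, yet the difference did not pass (-1.003 ± 0.46, edgeR adjusted p = 0.23). Cxcl10, an interferon-induced chemokine, differed by -0.04 ± 0.26. Of 18 maturation genes, Marcksl1 was higher and Marcks lower, and Cd86, Cd40, Cd80 and the homing receptor Ccr7 did not pass. Marcksl1 (2.58 ± 0.45) also differed by position in other groups. It averaged 50.3 CPM in WT and 300.2 CPM in KO, but KO replicate 5, the outer library, held 68.3 CPM. Neither Marcksl1 nor Marcks was called with the position term (edgeR adjusted p = 0.12 and 0.16). With the chemical chaperone, where all codes were inner, the difference was -1.155 for Marcksl1 and -0.001 for Marcks. Of 28 interferon-stimulated genes, Ifitm1 was the 1 called, and it was lower. With the position term Ifitm1 was not called and Oas3 was called lower (-0.64, edgeR adjusted p = 0.033). Oas3 also differed by position in other groups.

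**Figure D5:**
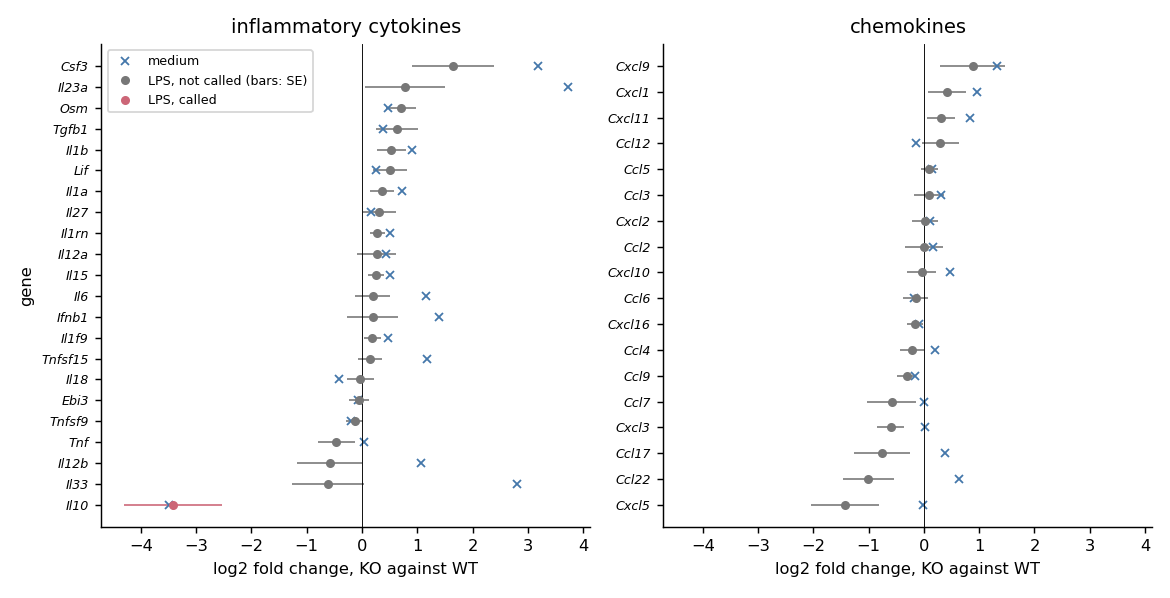
Log2 fold change of KO against WT for 22 cytokines and 18 chemokines after LPS (circles with SE bars, red where called) and in medium (crosses). Il10 is the called member, and most others lie within 1 of 0 after LPS.

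Among signalling genes, Rela, an activating NF-kB subunit, was at 58.3, 66.2, 63.8, 66.0 and 74.3 CPM in WT and at 168.2, 176.3, 141.9, 199.2 and 87.2 CPM in KO. All KO libraries were above WT and the outer one was the nearest (1.22 ± 0.20, with the position term 0.59, with 4PBA 0.02). Rela also differed by position in other groups. Of 20 NF-kB genes, 4 rose, the others being the feedback regulators Tnip1, Birc3 and Zc3h12a (0.43 to 0.45), and Rela and Birc3 were called with the term. For these lists the share over all genes tested was 4.31% called higher and 1.75% lower. Of 19 genes of LPS sensing, Ripk1 and Ripk2 rose, and only Ripk2 was called with the term. Of 22 ER stress genes, Dnajb11, an ER co-chaperone, rose (1.71 ± 0.24, with the term 1.01, with 4PBA -0.14), and it differed by position in other groups. Of 15 PERK-ATF4 genes, Ddit4, an mTORC1 inhibitor, rose from 30.5 ± 5.71 to 78.5 ± 15.9 CPM (1.37 ± 0.16, with the term 1.11), as did Nupr1. None of 14 heat shock genes were called, and of 16 genes of the BAG6 complex and tail-anchored route Ubqln1 was the 1 called, not with the term.

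In metabolism, the metal-binding proteins Mt1 and Mt2 rose (0.71 ± 0.13 and 0.77 ± 0.13) and were called with the position term (0.79 and 0.89). The glycolytic enzymes Tpi1, Gapdh and Eno1 rose by 0.38, 0.36 and 0.39, 3 of 22 on their list. Beside the lists here, 4.31% of all genes tested were called higher and 1.75% lower. The groups of Gapdh were at 9572 ± 269 and 12280 ± 566 CPM. Arg2, the mitochondrial arginase, rose (0.85 ± 0.21), and Ido1, which degrades tryptophan, fell by 2.46 (SE 0.70) from 1.5 to 12.2 CPM in WT to 0 to 2.95 CPM in KO. Ido1 was not called with the term. Of 27 sterol and fatty acid genes, Hmgcs1 and Idi1 fell by 0.87 and 0.94, and only Hmgcs1 was called with the term. None of 25 oxidative phosphorylation genes were called. Of 28 lysosomal genes, 4 rose, all among the genes that differed by position and including Lamp1, Plbd2 and Hpse, and Grn fell. Of 18 NRF2 and glutathione genes 5 rose, and Gstm1 (0.50 ± 0.14) and Glo1 were called with the term. The calls of Gapdh, Tpi1, Eno1, Idi1 and Ido1 were lost when some single libraries were left out. Of 18 inflammasome genes, Pycard and Gsdmd fell by 0.59 and 0.44 and Nlrp1a rose, none called with the term.

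The remaining lists held few calls, where 4.31% of all genes tested were called higher and 1.75% lower. Of 12 chemokine and prostanoid receptors, Cx3cr1 rose and Ccr2 and Ptger4 fell, and of these only Cx3cr1 was called with the position term. Of 16 paired immunoglobulin-like and CD300 receptors, Pira2 and the inhibitory receptor Lilrb3 (-0.54 ± 0.13) fell, and of 17 lectins and scavenger receptors, Clec4a3 and Stab1 did. With the position term 1 gene on each list was called, Pira2 on the first. Of 18 adhesion genes, the integrin chains Itgav and Itgb1 rose and Vcam1 fell, and only Vcam1 was called with the position term. Of 19 autophagy genes 4 rose, Map1lc3a, Atg3, Wipi2 and Nbr1, and 0 were called with the position term. Of 20 AP-1 and immediate early genes, Ier2 and Ier5 rose, of 14 p53 targets Phlda3 rose, and of 25 cell cycle genes Ccnd1, a G1 cyclin, fell. On these lists 0 genes were called with the position term. Of 34 ribosomal protein genes Rps2 and Rps27 rose, of 27 proteasome subunits Psmd3 rose, of 24 translation genes Eif1 rose, and none of 16 LXR targets were called. With the position term 2 ribosomal protein genes were called, Rps27 among them, and 0 proteasome or translation genes. Among markers of other cells, T cell (6.45 to 14.2 CPM), mast cell (125.8 to 245.5 CPM), eosinophil (25.2 to 84.9 CPM), stromal (17.3 to 39.8 CPM), type 1 conventional (124 to 262 CPM) and plasmacytoid dendritic cell lists (1312 to 1534 CPM) held 0 called genes, as did the erythroid list, at most 0.91 CPM. With the position term 1 eosinophil marker was called, and it was higher. The calls of Ccr2 and Clec4a3 were each lost without any 1 of 8 libraries, and those of Nbr1, Ier5, Itgav, Map1lc3a, Phlda3, Ccnd1 and Eif1 without 1 to 7.

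LPS changed 4123 genes in WT cells (40.1%) and 3618 in KO cells (35.2%), each against its own medium group. Whether the genotype difference changed with LPS was tested as a difference of differences. Of 10287 genes 1 was called (0.00972%), and 758 had an unadjusted p under 0.05. DESeq2 called 11. With replicate number as a block within genotype, a fit of the 20 medium and LPS libraries, 24 were called, 11 positive and 13 negative. KO LPS and KO medium libraries of the same number deviated together in 5 of 5 pairs (correlations of 0.297 to 0.604), and WT libraries did not do so in every pair (-0.168 to 0.449). Of the 24, Pim1 (0.84) and Cx3cr1 (2.91, edgeR adjusted p = 0.026) were positive, and Ccdc50 (-0.92), Cav2 (-1.27) and Ccr7 (-1.24) were negative. The gene called without the block was Ccdc50, a ubiquitin-binding protein. It was at 136.4, 131.6, 160.7, 151.9 and 117.8 CPM in WT LPS and at 94.1, 93.9, 91.1, 87.8 and 101.2 CPM in KO LPS. The groups did not overlap. In medium the means were 66.7 ± 9.25 and 84.2 ± 11.1 CPM, so the level rose more with LPS in WT cells, and the log2 difference of differences was -0.91 (edgeR adjusted p = 0.0018). All 5 WT medium libraries had outer and all 5 KO medium libraries inner codes.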

How the data were processed

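Gene-level tables, 1 per library, were deposited by the authors. The expected counts were estimated by RSEM and deposited without further scaling, per the file headers, and 9.09% of values were not whole. TPM values were deposited by the authors beside them and used here for an alternative test of Bag6. The submitters' processing notes name bcl2fastq and RSEM without versions; build, aligner and annotation release: not given in the sources used here. Counts were rounded, scaled by TMM factors, filtered by filterByExpr and tested two-sided with edgeR 4.0.16 (limma 3.58.1, R 4.3.3), a robust quasi-likelihood fit of 9 group means over 45 libraries with 36 residual degrees of freedom. Adjusted p-values are Benjamini-Hochberg over all genes tested, and standard errors come from the F statistic. DESeq2 1.42.0 was the second tool. Chromosomes and gene order came from RefSeq GRCm38.p6, in which 128 of 23420 genes were not found. The ribosomal RNA precursor Rn45s was kept among the counts. Counts and floors cover counting error only.

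Named genes were those called whose higher group averaged 10 CPM or more and whose libraries did not overlap by group, the 12 largest changes each way. Added to these were the 8 largest each way among genes called with and without the position term, 6 each way for the difference between LPS and medium, and members of 34 gene lists, 13 marker lists and the Bag6 window. Members, lists and rule were chosen with earlier results of these data known. Outer codes are row A and columns 1 and 12. Same-numbered libraries of WT and KO LPS had correlations of -0.099 to 0.484 over 2000 genes, so the numbers were not used as pairs between genotypes. KO LPS and KO medium libraries paired by number (0.297 to 0.604), and a block within genotype is given beside the test of the change with LPS. Alternatives were another tool, other size factors, filters, fewer libraries, a replicate block, position as a term and each library left out. Some genes that were counted are not reported here by name.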

Additional observations from a re-analysis of the deposited data

Results flagged for a closer look

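Of 70 groups of 5 libraries (35 genes), 6 had 1 library far from the other 4. Chance gives about 1 in 20 where genes are not chosen by their values. These genes were chosen from the same libraries, so that rate is no yardstick here. Of the 6, 3 were KO LPS replicate 5, the outer-code library. Rnf187 stood there at 9.862 CPM against 74.75 to 97.84 CPM, Ripk2 at 31.66 CPM against 116.6 to 134.3 CPM, and Plbd2 at 55.54 CPM against 137.2 to 166.4 CPM. In KO LPS replicate 1, Rps27 stood at 55.32 CPM against 177.2 to 187.4 CPM and Cx3cr1 at 5.901 CPM against 15.66 to 18.76 CPM. In KO LPS replicate 2, Dynlt1c, a dynein light chain, stood at 26.37 CPM against 11.43 to 15.29 CPM. Ccdc50 had a genotype difference after LPS that differed from the one in medium by -0.9121 on the log2 scale, by the test of that difference.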

How the results depend on the processing

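The count of 623 genes called after LPS became 161 with code position as a term and 8 with KO LPS replicate 5 as the only KO library; it was 567 in the 10 LPS libraries alone, 744 with DESeq2 and 488 to 723 without each library in turn. Without WT LPS replicate 1 the lower calls fell to 119 and without KO LPS replicate 4 to 120. The 161 became 266 with DESeq2 and 77 to 148 without each library in turn. It was 77 without WT LPS replicate 1, 94 without replicate 3, 96 without replicate 4 and 107 without KO LPS replicate 2. In the 20 medium and LPS libraries the term rested on KO LPS replicate 5 alone, so that fit repeated the comparison of that library with WT. With the replicate number as a block the 10 LPS libraries gave 587 calls, and the change of the genotype difference with LPS gave 24 with a replicate block within genotype; that count of 1 became 0 in the 20 libraries, 11 with DESeq2 and 1 to 4 without each library in turn. The 51 calls with 4PBA became 87 with DESeq2. The Bag6 difference of -0.699 was -0.707 in TPM (exact permutation p = 0.0476) and -0.898 to -0.394 without each library in turn, and the block gave p = 0.0625, the smallest it can give, by an exact sign permutation. With KO LPS replicate 5 as the only KO library Ubqln1 turned to -0.027 and Prrc2a to -0.040. Of 104 named results, position as a term left 54 with the same call, 3 newly past the threshold and 47 no longer past it. The cause was not tested, except that the single-library fit has fewer samples. Of the named genes, 32 lost their call without some single library, 8 of them without only 1: Ccnd1, Cx3cr1, Eif1, Gstm1, Il10, Ptger4, Ripk1 and Stat5b.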
